A study of Mus musculus with 12 samples.

Results

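Antioxidant enzymes and targets of the transcription factor NRF2 were followed in the abdominal fat of female mice that lacked a part of a superoxide-producing enzyme. The list held 45 genes, chosen by name for their role in the removal of oxidants, in glutathione metabolism or as NRF2 targets, and 39 of them had a probe set of their own among the 18194 genes measured. These 39 genes were read by 83 probe sets, and 26 of them by more than 1; each gene was read as the average over its probe sets. Prdx1 and Ftl1 were named only on probe sets of several genes, and Prdx5, Prdx6, G6pdx and Ucp2 were not analysed here.

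The animals were female mice of the C57BL/6 background, wild type or null for p47phox, which is the product of Ncf1 and an organizing subunit of the phagocyte NADPH oxidase. They received a casein diet or a high fat diet from postnatal day 28 for 13 weeks. Fat pads were pooled, and each of the 4 groups (wild type casein, null casein, wild type high fat diet and null high fat diet) had 3 pools, each on its own Affymetrix array. The labels name no promoter or cell-restricted allele for the null genotype, and a fat pad holds vessels, macrophages and mesothelium as well as adipocytes. How many animals made up a pool is not given in the sources used here, so each p-value measures the spread between pools.

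NRF2, encoded by Nfe2l2, is held in the cytoplasm and marked for degradation by KEAP1. When cysteines of KEAP1 are modified by oxidants or electrophiles, NRF2 accumulates, enters the nucleus and binds antioxidant response elements near its targets, among them the genes of glutathione synthesis, the thioredoxin system, NQO1, heme oxygenase 1 and several glutathione transferases. Superoxide dismutases turn superoxide into hydrogen peroxide, which catalase, glutathione peroxidases and peroxiredoxins then remove.

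The core of the antioxidant response element, TGACNNNGC, was looked for on both strands in the 250 bases before the start of each gene in RefSeq (GRCm38.p6). It was present in 9 of the 36 listed genes with a promoter sequence (25%), in 6 of the 31 measured ones (19.4%) and in 3112 of all 27025 genes (11.5%). The measured carriers were Nfe2l2, Gclm, Txnrd1, Sod1, Mgst1 and Gsta3. Stretches of 4 of them are printed because these genes return in the comparisons below; each is written 5′ to 3′ on the strand of its gene, with the match in capitals.
Nfe2l2 (chr2:75704855-75704913, minus strand, match on the strand of the gene): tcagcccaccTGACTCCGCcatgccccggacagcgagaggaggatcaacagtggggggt
Gclm (chr3:122245383-122245471, plus strand, match on the opposite strand): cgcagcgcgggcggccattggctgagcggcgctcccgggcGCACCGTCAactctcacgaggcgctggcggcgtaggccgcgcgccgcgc
Txnrd1 (chr10:82859074-82859162, plus strand, match on the opposite strand): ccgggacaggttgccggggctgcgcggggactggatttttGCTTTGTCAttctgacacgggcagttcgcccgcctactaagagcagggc
Sod1 (chr16:90220666-90220754, plus strand, match on the opposite strand): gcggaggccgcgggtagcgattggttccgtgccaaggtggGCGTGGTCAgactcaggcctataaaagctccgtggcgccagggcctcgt
A match of these letters is a description and not a binding site. The match began 240 bases before the start of Nfe2l2, 134 before Gclm, 92 before Txnrd1 and 56 before Sod1.

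All values are differences on the log2 scale, because each probe set had been centred on its median over the 12 arrays before deposit. A value of 0 is therefore the middle of the 12 pools for a probe set, and need not be exactly that for a gene averaged over several. No gene's level can be set against another's. The span of the 39 genes over the 12 pools had a median of 0.78 against 0.50 over all genes. Single genes lay on both sides of the latter. They ran from 0.29 for Gstp1, a cytosolic glutathione transferase, to 1.90 for Sod3, the extracellular superoxide dismutase. The heat map of the 39 genes shows this spread by pool.

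**Figure D1:**
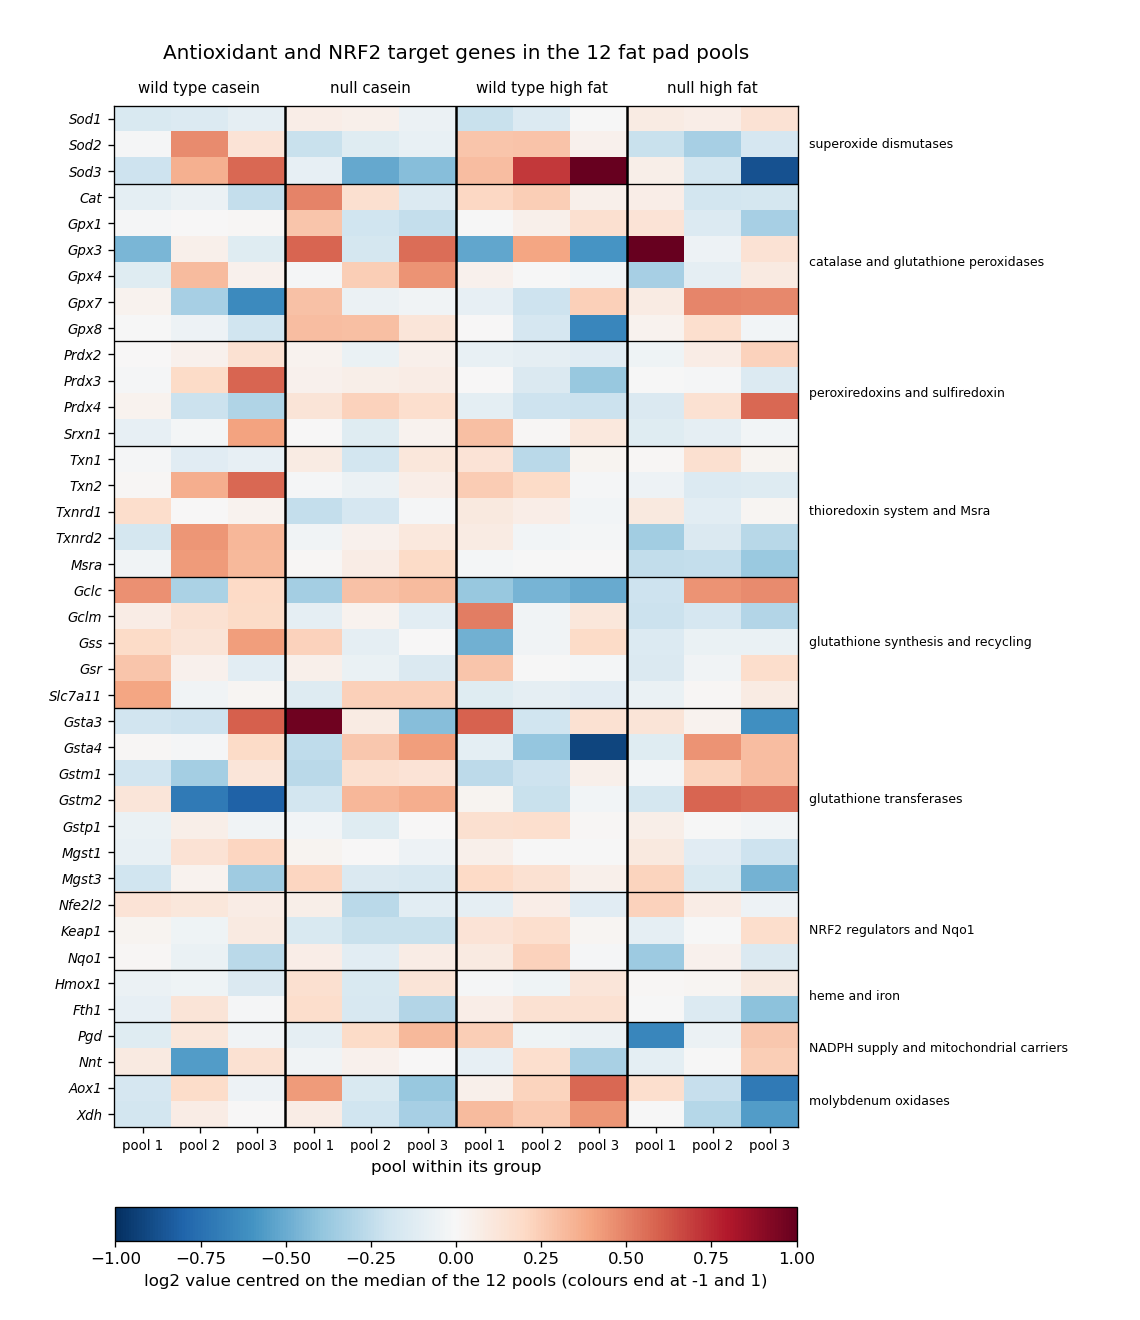
Heat map of the 39 measured antioxidant and NRF2 target genes (rows, grouped by enzyme family) in the 12 pools (columns, grouped by genotype and diet), coloured by the deposited log2 value, averaged over the probe sets of a gene. For each probe set 0 is the median of the 12 pools, and colours end at -1 and 1. Sod2, Sod3 and Xdh are above 0 in all 3 wild type pools on the high fat diet, and Sod2 is below 0 in all 6 null pools, while the median of the 39 genes stays between -0.06 and 0.05 in every pool.

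The labels were first checked on the deleted gene, and other tissues were looked for in the pools. Ncf1 values were 0.07 to 0.85 in the 6 wild type pools and -0.29 to -0.19 in the 6 null pools, and on 2 of its 3 probe sets all null pools lay below all wild type pools. On the high fat diet 5.92% of all genes passed between the genotypes (limma, adjusted p under 0.05). In null pools 6 of 16 adipocyte and 3 of 15 endothelial markers fell, and 7 of 20 markers of ovary, oviduct and uterus rose. Lists with a single call were mesothelium (1 of 10, higher in null pools), and lymphocyte (1 of 16), erythroid (1 of 5) and pancreas (1 of 8), each lower. The median of the adipocyte markers was 0.19 in all 3 wild type pools on the high fat diet and -0.52 to -0.04 in the null pools. For the endothelial markers these ranges were 0.24 to 0.58 and -0.26 to -0.01, for the reproductive tract -0.60 to -0.33 and 0.12 to 0.75, and for mesothelium -1.52 to -0.17 and 0.26 to 0.83. Of 20 macrophage markers none passed this test, though 8 of them and 4533 of all 18194 genes had an unadjusted p under 0.05. The macrophage medians were -0.02 to 0.54 in wild type and -0.05 to 0.05 in null pools. Skeletal muscle markers had a median of 4.58 in wild type pool 2 and 3.77 in null pool 1 on the high fat diet, and of 2.93 in wild type pool 1 and 1.95 in null pool 1 on casein. Wild type pool 3 on casein had medians of 4.64 for liver, 3.57 for adrenal and 1.56 for lymphocyte markers. Centred values do not show whether a defining marker is absent.

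**Figure D2:**
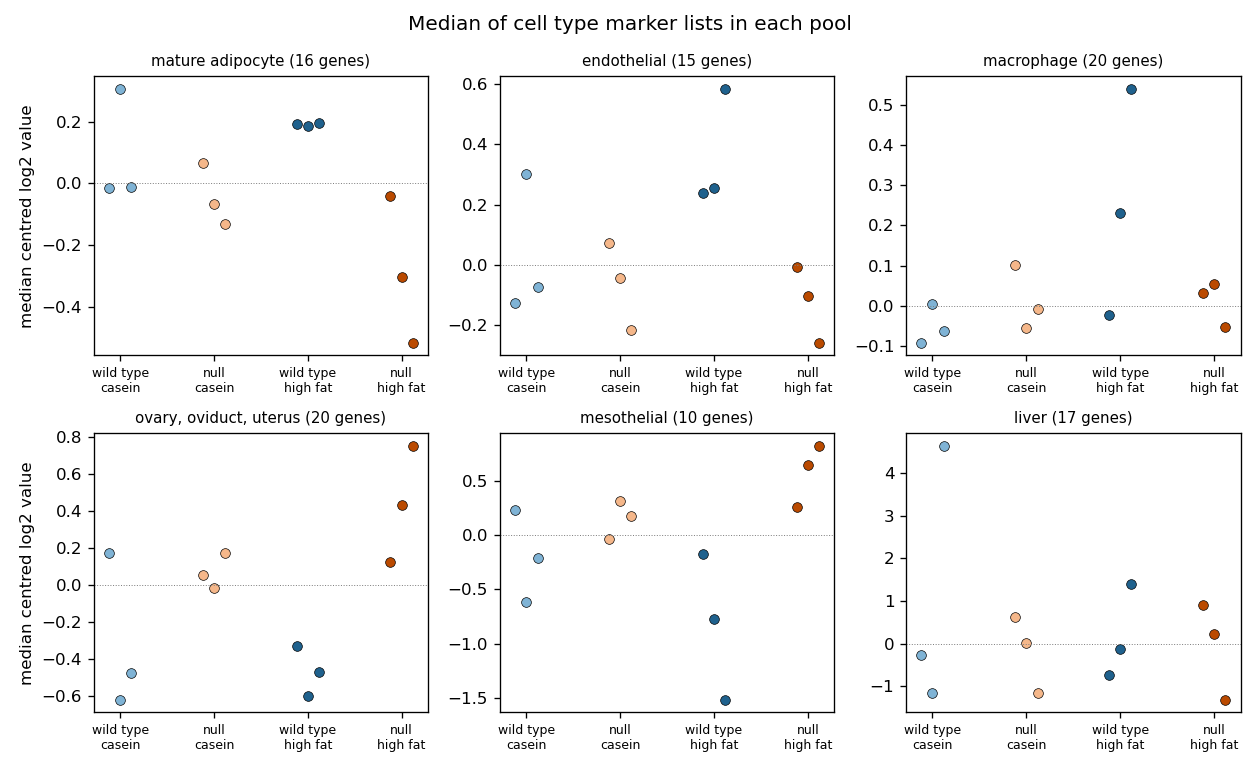
Median log2 value (vertical axis, 0 is the median of the 12 pools for each probe set) of 6 lists of cell type or tissue markers. Each point is 1 pool, by genotype and diet. For mice on the high fat diet the endothelial medians are 0.24 to 0.58 in wild type pools and -0.26 to -0.01 in null pools, and those of the reproductive tract run the other way, at -0.60 to -0.33 and 0.12 to 0.75.

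The first question was whether the loss of p47phox went with other levels of antioxidant genes in the fat of mice on the high fat diet. Xdh, which encodes xanthine dehydrogenase, an enzyme that can itself produce superoxide and is made by adipocytes and endothelium, fell in null pools. It was the 1 gene of the 39 that passed the threshold (limma, Benjamini-Hochberg adjusted p under 0.05), where 5.92% of all genes passed. Leaving out 1 pool gave a count of 0 for null casein pool 2, each of the 3 wild type pools on this diet and pools 2 and 3 of the null group on this diet. It gave 4 for wild type casein pool 1 and for pool 1 of the null high fat diet group, and 2 for wild type casein pool 2. Over all genes the fits with a count of 0 gave 0 to 456 calls. Those with 4 gave 1454 and 1617, and the one with 2 gave 1334. Weighting the arrays by their fit gave 18 genes (5120 over all genes), and the estimation of the weights did not reach its convergence tolerance. Taking the medians of the markers of ovary, oviduct and uterus, of skeletal muscle and of liver as covariates gave 0 (0 over all genes). The first of these 3 medians did not overlap between the genotypes on this diet. That fit had 5 residual degrees of freedom, so a lost call in it cannot be read for single genes. Over the 39 genes the median difference was -0.09 against -0.03 over all genes, from -1.01 for Sod3 to 0.69 for Gclc. The median size of the difference, sign apart, was 0.26 against 0.14 over all genes. An unadjusted p under 0.05 (limma) held for 12 of the 39 and 4533 of all genes.

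The pools of the 2 genotypes on the high fat diet did not overlap for 13 of the 39 genes, near the 32.2% of all genes for which this held. Higher in every null pool than in every wild type pool were Sod1, Prdx2, Gclc and Slc7a11, and lower were Sod2, Sod3, Srxn1, Txn2, Txnrd2, Msra, Gclm, Fth1 and Xdh.

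**Figure D3:**
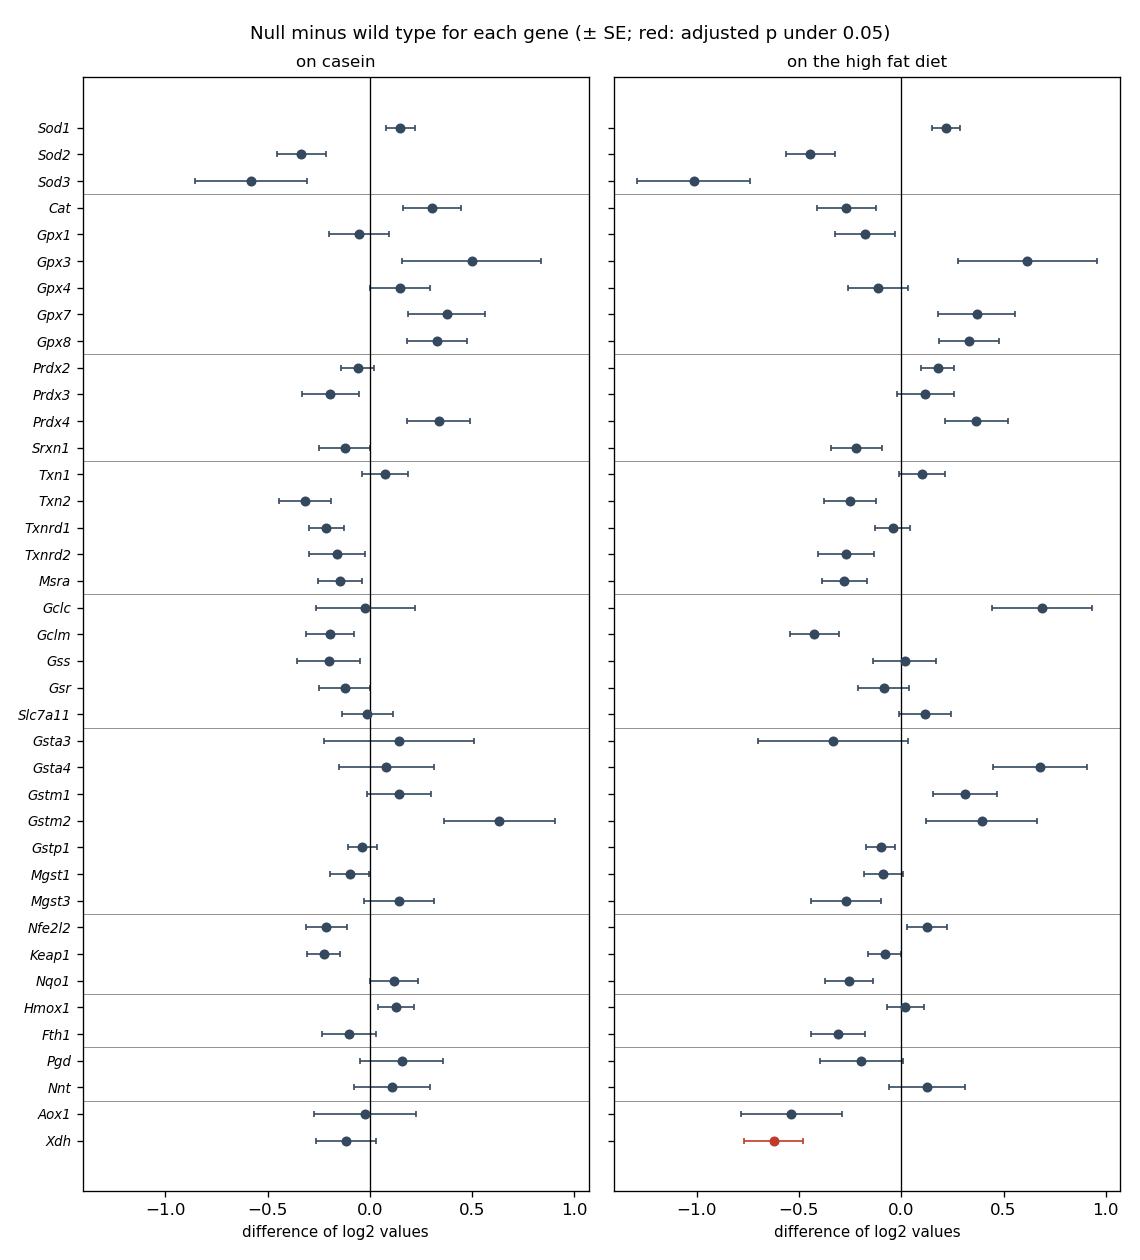
Difference between null and wild type pools on the log2 scale for each of the 39 genes, by diet; points are differences of group means, bars ± SE from the limma fit (3 pools per group), and red marks an adjusted p under 0.05. Xdh, at -0.62 ± 0.15 on the high fat diet, is the red point, Sod3 lies farther left at -1.01 ± 0.28 with a wider bar, and Hmox1 sits at 0.02.

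The difference was also taken as the mean over both diets, which uses all 12 pools. Sod2 and Sod3 fell in null pools, and they were the 2 of the 39 genes that passed the threshold, where 7.52% of all genes passed. An unadjusted p under 0.05 (limma) held for 15 of the 39 and 4658 of all genes. The count was 0 without pool 2 or 3 of either null group, where 157 to 357 of all genes passed. It was 10 without wild type casein pool 1, where 2339 of all genes passed. It was 1 without wild type casein pool 2 or 3 or any 1 of the 3 wild type high fat diet pools (Gclm in place of both without pool 2). It was 3 without pool 1 of the null casein group and 4 without pool 1 of the null high fat diet group. Over all genes these fits gave 360 to 716, 1567 and 1783 calls. The count was 16 with array weights (4009 over all genes) and 0 with the 3 marker medians as covariates (0 over all genes). It was also 0 without the 3 pools that stood apart most in muscle or liver markers (548 over all genes). These were wild type casein pool 3, wild type high fat diet pool 2 and null high fat diet pool 1. Wild type casein pool 1 and null casein pool 1, with muscle marker medians of 2.93 and 1.95, were kept in that fit.

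Sod2 encodes the manganese superoxide dismutase of the mitochondrial matrix. Its values were -0.01, 0.47 and 0.13 in wild type pools on casein and -0.22, -0.12 and -0.07 in null pools on casein. Under the high fat diet they were 0.28, 0.29 and 0.05 in wild type pools and -0.22, -0.33 and -0.17 in null pools. All 6 null pools lay below all 6 wild type pools, which held for no other of the 39 genes and for 3.07% of all genes in either direction. These values average 4 probe sets, and only 1 of them separated the 12 pools in this way. Another overlapped even on the high fat diet, at -0.55 to 0.37 in wild type and -0.59 to 0.18 in null pools. The Sod2 difference averaged over diets was -0.39 ± 0.08 (SE, adjusted p = 0.029, limma). It was -0.33 on casein (adjusted p = 0.57) and -0.45 on the high fat diet (adjusted p = 0.0545). The averaged call was lost without null casein pool 2 or 3 (adjusted p = 0.072 and 0.059), and on the high fat diet without wild type pool 1 or 2 (0.060 and 0.060) or null pool 2 or 3 (0.073 and 0.059). With the marker medians as covariates the averaged difference was -0.17 (adjusted p = 0.97). In that fit 0 of all genes passed, so the loss cannot be read for Sod2 alone.

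Sod3 encodes the secreted copper-zinc dismutase, which binds the matrix around vessels. It was -0.21, 0.35 and 0.58 in wild type pools on casein and -0.08, -0.51 and -0.43 in null pools on casein. In the high fat diet groups it was 0.31, 0.71 and 1.03 in wild type pools and 0.06, -0.19 and -0.87 in null pools. The groups overlapped on casein and not on the high fat diet. Averaged over diets the difference was -0.80 ± 0.19 (SE, adjusted p = 0.038, limma), and on the high fat diet alone it was -1.01 ± 0.28 (adjusted p = 0.056). The averaged call was lost without pool 2 or 3 of any of the 4 groups, with adjusted p-values of 0.092 and 0.070 for wild type casein, 0.096 and 0.086 for null casein, 0.074 and 0.081 for wild type high fat diet, and 0.075 and 0.078 for null high fat diet. With the covariates it was -0.19 (adjusted p = 1). In that fit 0 of all genes passed, so the loss cannot be read for Sod3 alone. The endothelial marker medians given above lay the same way as Sod3 on the high fat diet. Their part in the result was not tested.

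Sod1, the cytosolic copper-zinc dismutase, is given here although the naming rule did not pick it, because the other members of its family passed; it was chosen after its values were seen. For the high fat diet groups it was -0.22, -0.14 and -0.0030 in wild type pools and 0.08, 0.07 and 0.15 in null pools. On casein it was -0.15, -0.14 and -0.09 in wild type pools and 0.07, 0.05 and -0.05 in null pools. The groups overlapped on neither diet. The differences, 0.22 on the high fat diet (adjusted p = 0.089) and 0.15 on casein (adjusted p = 0.61), did not pass, nor did the average of 0.18 (adjusted p = 0.052). Its sign was thus opposite to that of Sod2 and Sod3, and its own probe sets differed in sign on the high fat diet.

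Xdh was -0.19, 0.07 and 0.0041 in wild type pools on casein and 0.07, -0.20 and -0.33 in null pools on casein, so the groups overlapped. Among high fat diet pools it was 0.31, 0.26 and 0.44 in wild type pools and -0.0041, -0.29 and -0.56 in null pools. The difference was -0.62 ± 0.15 (SE, adjusted p = 0.038, limma) on the high fat diet, -0.12 on casein (adjusted p = 0.83) and -0.37 averaged over diets (adjusted p = 0.054). Its high fat diet call was lost without null casein pool 2 (adjusted p = 0.060), each of the wild type pools on that diet (0.085, 0.078 and 0.12) and null pools 2 and 3 on that diet (0.12 and 0.14). In a fit of only the 2 groups compared Xdh had an adjusted p of 0.056 and Sod2, at 0.045, passed in its place. With the covariates the Xdh difference was -0.24 (adjusted p = 0.97). In that fit 0 of all genes passed, so the loss cannot be read for Xdh alone. The other molybdenum oxidase, Aox1, an aldehyde oxidase, had a difference of -0.54 (adjusted p = 0.21) on the high fat diet. The adipocyte marker medians moved the same way as Xdh, and whether the fat pads held fewer cells of a type or less RNA per cell cannot be told apart in pooled tissue.

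**Figure D4:**
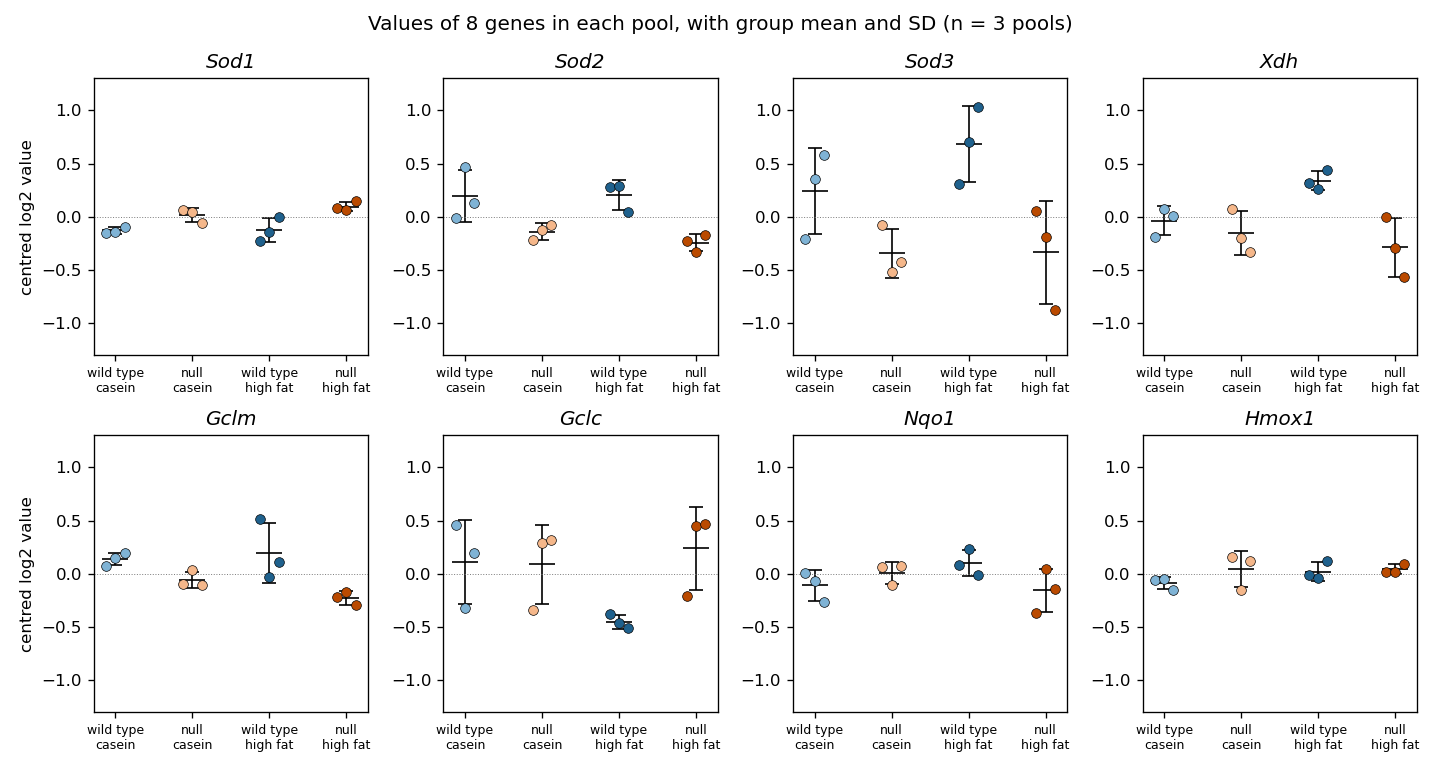
Log2 values of Sod1, Sod2, Sod3, Xdh, Gclm, Gclc, Nqo1 and Hmox1 in the 12 pools; each point is 1 pool, with the group mean and SD (n = 3 pools) as lines. For Xdh the wild type pools on the high fat diet sit between 0.26 and 0.44 and the null pools between -0.56 and -0.0041, while those of Hmox1 overlap.

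Among the enzymes that remove hydrogen peroxide, catalase and 5 glutathione peroxidases were measured and none passed in any comparison. Catalase, the peroxisomal enzyme, had values of -0.10, -0.06 and -0.24 in wild type pools on casein and 0.50, 0.16 and -0.14 in null pools on casein. On the high fat diet it had 0.21, 0.25 and 0.05 in wild type pools and 0.06, -0.18 and -0.18 in null pools. The genotype difference was thus 0.31 on casein (adjusted p = 0.61) and -0.27 on the high fat diet (adjusted p = 0.28). Gpx3, the secreted glutathione peroxidase, was -0.46, 0.05 and -0.12 in wild type pools against 0.58, -0.18 and 0.56 in null pools on casein. It was -0.52, 0.39 and -0.59 in wild type pools against 1.04, -0.05 and 0.14 in the null pools of the high fat diet. With differences of 0.50 and 0.62 (adjusted p = 0.70 and 0.30) its pools overlapped on both diets. Gpx4, which reduces lipid hydroperoxides in membranes, differed by -0.11 (adjusted p = 0.69) on the high fat diet. Its values there were 0.05, -0.0074 and -0.03 in wild type pools against -0.33, -0.09 and 0.09 in null pools, against -0.12, 0.32 and 0.04 in wild type pools against -0.01, 0.24 and 0.45 in null pools on casein. Gpx1, the cytosolic enzyme, differed by -0.18 (adjusted p = 0.50). The smallest unadjusted p of Gpx4, 0.0436 (limma), was for the diet in null pools, a difference of -0.34 that did not pass.

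Gpx7, Gpx8 and Prdx4, peroxidases of the endoplasmic reticulum that take part in oxidative protein folding, were grouped after their values were seen. They had differences of 0.37, 0.33 and 0.37 on the high fat diet and 0.38, 0.33 and 0.34 on casein. Averaged over diets these were 0.37, 0.33 and 0.35, with adjusted p-values of 0.11, 0.077 and 0.077 (limma), so none passed. Gpx8 was -0.0026, -0.05 and -0.20 in wild type pools on casein and 0.31, 0.30 and 0.12 in null pools, which did not overlap. On the high fat diet the Gpx8 pools overlapped, at 0.0026, -0.17 and -0.65 in wild type pools against 0.03, 0.17 and -0.03 in null pools.

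The peroxiredoxins, thiol peroxidases recycled by thioredoxin, and sulfiredoxin, which restores them after overoxidation, gave 4 measured genes and none passed. Prdx3, the mitochondrial peroxiredoxin, was -0.01, 0.19 and 0.58 in wild type pools against 0.04, 0.06 and 0.08 in null pools on casein. Under the high fat diet it was 0.0053, -0.14 and -0.38 in wild type pools against -0.0053, -0.02 and -0.14 in null pools. Prdx3 had its smallest unadjusted p for the diet in wild type pools, a difference of -0.42 (adjusted p = 0.59, limma), and those pools overlapped. Its genotype difference on the high fat diet was 0.12 (adjusted p = 0.66). Prdx2, the cytosolic one, differed by 0.18 (adjusted p = 0.20) and sulfiredoxin, Srxn1, by -0.22 (adjusted p = 0.31).

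Of the 4 measured thioredoxin genes and Msra, 4 of 5 had lower values in null pools on each diet, and none passed. Msra, which reduces oxidized methionine, was -0.04, 0.42 and 0.33 in wild type pools against 0.01, 0.08 and 0.19 in null pools on casein. In the high fat diet groups it was -0.02, -0.0078 and 0.0078 in wild type pools against -0.25, -0.24 and -0.37 in null pools. The latter did not overlap, with a difference of -0.28 ± 0.11 (SE, adjusted p = 0.14, limma). The mitochondrial pair Txn2 and Txnrd2 differed by -0.25 and -0.27 on the high fat diet (adjusted p = 0.26 and 0.26), and the cytosolic pair Txn1 and Txnrd1 by 0.10 and -0.04 (adjusted p = 0.64 and 0.81). Txnrd1, which holds the response element core printed above, had lower values in every null pool on casein than in every wild type pool, by -0.21 (adjusted p = 0.59).

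Glutathione is made in a first, rate-limiting step by glutamate-cysteine ligase, whose catalytic subunit is Gclc and whose modifier subunit is Gclm. On the high fat diet their differences had opposite signs. Gclm was 0.08, 0.15 and 0.19 in wild type pools against -0.09, 0.03 and -0.10 in null pools on casein, and 0.51, -0.03 and 0.12 in wild type pools against -0.22, -0.17 and -0.29 in the null pools of the high fat diet. The pools overlapped on neither diet. The difference was -0.43 ± 0.12 (SE, adjusted p = 0.060, limma) on the high fat diet and -0.31 averaged over diets (adjusted p = 0.051), so it did not pass. Gclc, named after its values were seen, was -0.38, -0.46 and -0.50 in wild type pools against -0.21, 0.45 and 0.47 in the null pools of the high fat diet, a difference of 0.69 ± 0.24 (SE, adjusted p = 0.11). On casein the Gclc difference was -0.02 (adjusted p = 0.99). The cystine transporter Slc7a11, the synthetase Gss and the reductase Gsr differed by 0.11, 0.02 and -0.09 on the high fat diet (adjusted p = 0.63 to 0.96 for these 3 genes).

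Of 7 glutathione transferases, which couple glutathione to electrophiles, none passed. Gsta4, which acts on the lipid peroxidation product 4-hydroxynonenal, had 0.01, -0.01 and 0.19 in wild type pools against -0.26, 0.27 and 0.42 in null pools on casein. For the high fat diet groups it had -0.10, -0.38 and -0.91 in wild type pools against -0.12, 0.45 and 0.31 in null pools. The difference was 0.68 ± 0.23 (SE, adjusted p = 0.10, limma), with null pool 1 inside the wild type range. The remaining 6 genes differed by -0.33 for Gsta3 to 0.39 for Gstm2 on the high fat diet.

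The regulators and the best known NRF2 targets did not pass in any comparison. Nfe2l2 was 0.13, 0.11 and 0.07 in wild type pools against 0.06, -0.27 and -0.11 in null pools on casein, which did not overlap. Among high fat diet pools it was -0.09, 0.07 and -0.11 in wild type pools against 0.23, 0.07 and -0.05 in null pools. Its genotype difference was -0.21 with casein and 0.13 with the high fat diet (adjusted p = 0.61 and 0.48). Keap1 was 0.03, -0.04 and 0.09 in wild type pools against -0.15, -0.22 and -0.22 in null pools on casein, a difference of -0.22 (adjusted p = 0.57). On the high fat diet it was 0.13, 0.17 and 0.02 in wild type pools against -0.09, -0.00060 and 0.18 in null pools, a difference of -0.08 (adjusted p = 0.59). The 2 probe sets of Keap1 had casein differences of -0.45 and 0.00021. Messenger RNA of these genes does not measure NRF2 protein, which is set mainly by its degradation.

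Nqo1, a quinone reductase used as a readout of NRF2, was 0.01, -0.07 and -0.27 in wild type pools against 0.07, -0.11 and 0.08 in null pools on casein. Under the high fat diet it was 0.09, 0.23 and -0.01 in wild type pools against -0.36, 0.04 and -0.14 in null pools. The high fat diet difference was -0.26 (adjusted p = 0.20, limma), with a 95% interval from -0.52 to 0.0022. Hmox1, heme oxygenase 1, was -0.06, -0.04 and -0.15 in wild type pools against 0.16, -0.15 and 0.13 in null pools on casein. In the high fat diet groups it was -0.01, -0.04 and 0.12 in wild type pools against 0.01, 0.02 and 0.10 in null pools. That difference was 0.02 (adjusted p = 0.92), with a 95% interval from -0.18 to 0.22. Fth1, the ferritin heavy chain that stores iron, was -0.08, 0.13 and -0.02 in wild type pools against 0.18, -0.16 and -0.29 in null pools on casein. For the high fat diet groups it was 0.06, 0.16 and 0.15 in wild type pools against -0.0039, -0.14 and -0.41 in null pools, and the difference of -0.31 did not pass (adjusted p = 0.18).

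Of the genes that supply NADPH, Pgd and Nnt were measured. Pgd, of the pentose phosphate pathway, was 0.25, -0.04 and -0.06 in wild type pools against -0.65, -0.05 and 0.27 in the null pools of the high fat diet, and -0.12, 0.12 and -0.04 in wild type pools against -0.09, 0.19 and 0.32 in null pools on casein. Nnt, the mitochondrial transhydrogenase, which some C57BL/6 substrains lack, was 0.09, -0.56 and 0.15 in wild type pools against -0.04, 0.05 and 0.0045 in null pools on casein. Among high fat diet pools it was -0.08, 0.17 and -0.32 in wild type pools against -0.10, -0.0015 and 0.25 in null pools. The genotype differences on the high fat diet, -0.20 for Pgd and 0.13 for Nnt (adjusted p = 0.61 and 0.73), were within the spread between pools.

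Probe sets of 1 gene did not always agree. Of the 26 genes with several probe sets, 7 (Sod1, Txn1, Txnrd1, Gss, Slc7a11, Keap1 and Nnt) had probe sets of opposite sign for null minus wild type on the high fat diet. Taken singly, 5 of the 83 probe sets had all 6 null pools on one side of all 6 wild type pools, 4 of them lower, where this held for 2.8% of the 34958 probe sets with 1 gene. Those lower in null pools belonged to Sod2, Txn2, Gclm and Nnt, and the higher one to Txn1. The cytosolic and the mitochondrial thioredoxin thus had probe sets that separated the genotypes in opposite directions. Their other probe sets did not separate the genotypes. On the high fat diet these had differences of -0.03 for Txn1, opposite in sign to its separating probe set, and of -0.19 and -0.24 for Txn2. The Nnt probe set was 0.01 to 0.28 in wild type and -0.33 to -0.01 in null pools, with a difference of -0.31 on the high fat diet, while the other probe sets of Nnt had differences of 0.45 and 0.24.

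On casein none of the 39 genes passed the genotype comparison, where 0% of all genes passed (limma); 6 of the 39 and 1478 of all genes had an unadjusted p under 0.05. The pools did not overlap for 8 genes, where this held for 12% of all genes. These were Sod1, Gpx8 and Prdx4 with higher and Sod2, Txnrd1, Gclm, Nfe2l2 and Keap1 with lower values in null pools.

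The next question was whether the high fat diet itself went with other levels of these genes. In wild type pools none of the 39 genes passed, where 0% of all genes passed (limma); 6 of the 39 and 1384 of all genes had an unadjusted p under 0.05. Pools of the 2 diets did not overlap for 9 genes, against 11.9% of all genes: Cat, Mgst3, Hmox1 and Xdh were higher and Prdx2, Gclc, Slc7a11, Gsta4 and Nfe2l2 lower on the high fat diet. Xdh differed by 0.38 and Cat by 0.30 between diets, and Gclc by -0.56 and Gsta4 by -0.53, each with adjusted p = 0.64 to 0.67. In null pools none passed either, where 0% of all genes passed; 3 of the 39 and 727 of all genes had an unadjusted p under 0.05. Pools did not overlap for 6 genes against 10.6% of all genes, with Sod1 and Keap1 higher and Prdx3, Txnrd2, Msra and Gclm lower on the high fat diet. Msra had the smallest unadjusted p of the 39, with a difference of -0.38 ± 0.11 (SE, adjusted p = 1, limma). With array weights 6 genes passed in null pools, where 942 of all genes passed. Averaged over both genotypes none of the 39 genes passed, where 0.0055% of all genes, a single gene, did (limma); 5 of the 39 and 952 of all genes had an unadjusted p under 0.05.

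**Figure D5:**
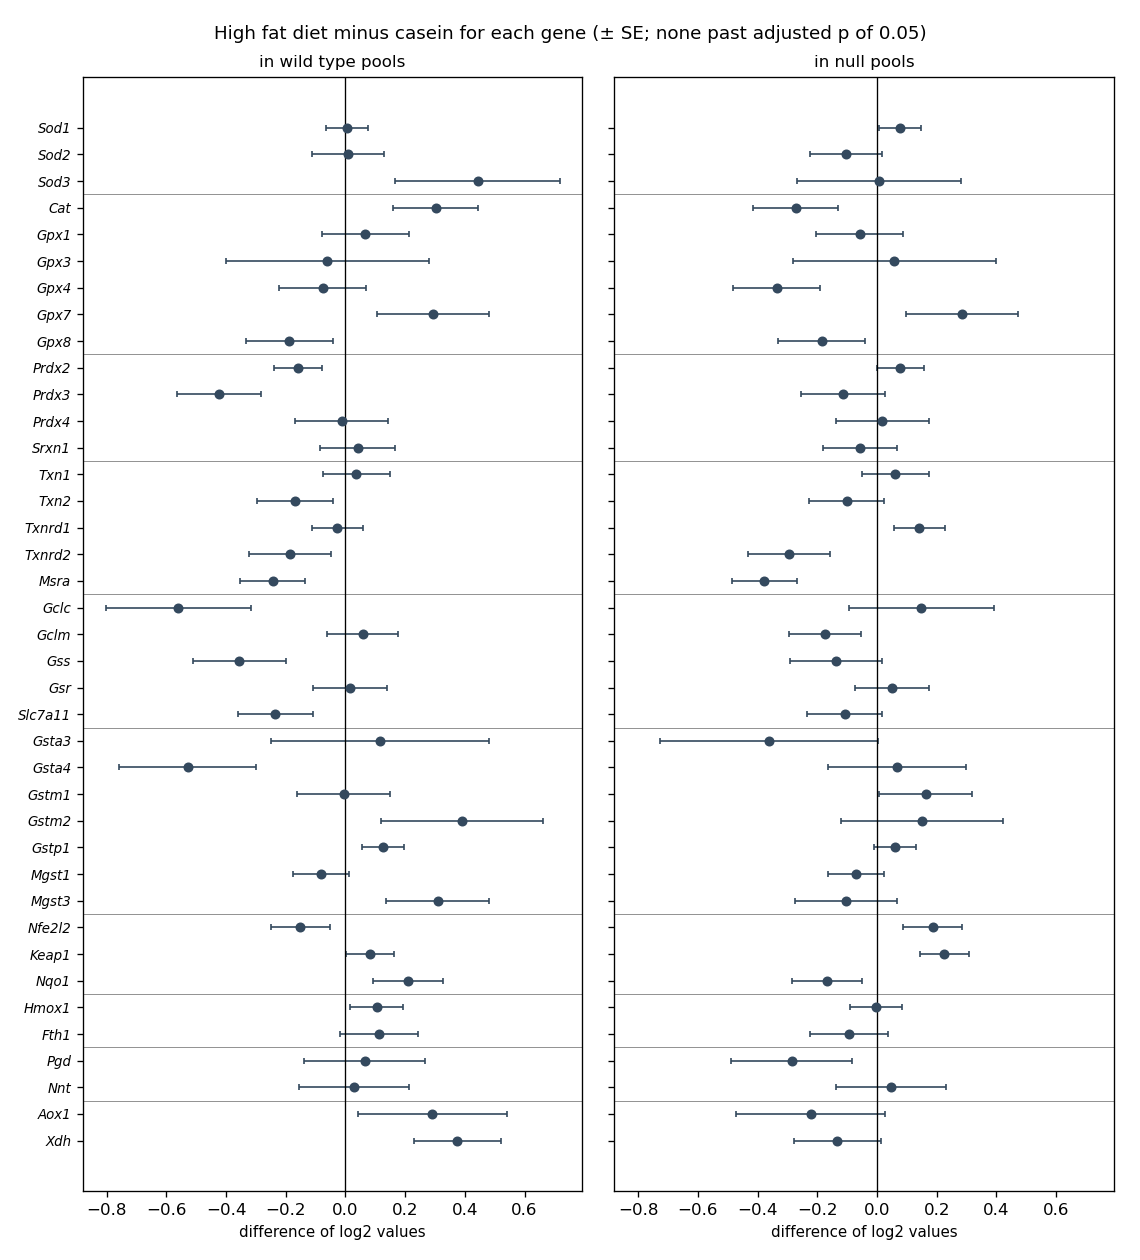
Difference between high fat diet and casein pools on the log2 scale for each of the 39 genes, in wild type pools (left) and null pools (right); points are differences of group means and bars ± SE from the limma fit (3 pools per group). Xdh differs by 0.38 in wild type pools against -0.13 in null pools and Cat by 0.30 and -0.27, and no gene passed the adjusted threshold in either genotype.

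The interaction, which is the diet difference of the null genotype minus that of the wild type, tested whether the 2 genotypes differed in their response. None of the 39 genes passed, where 0% of all genes passed (limma). The unadjusted p was under 0.05 for 1113 of all genes and for 4 of the 39, Cat, Nfe2l2, Nqo1 and Xdh, with interactions of -0.57, 0.34, -0.38 and -0.51 and an adjusted p of 0.79 each. The 2 diet differences share no pools, but the genotype comparisons share pools with them.

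A wider list of 73 antioxidant and NRF2 related genes outside the 45, of which 71 were measured, was read in the same fit. Between genotypes on the high fat diet, 4 of the 71 were higher in null than in wild type pools past the threshold (Mgst2, Nxn, Cbr3 and Mt1) and 2 were lower (Blvra and Abcc1), where 5.92% of all genes passed. Averaged over diets 6 were higher in null pools, with Gstm7 and Mt2 beside those 4, and 3 were lower, with Nqo2 beside those 2, where 7.52% of all genes passed. On casein none passed, where 0% of all genes passed (limma), and Mgst2 had the smallest adjusted p there, 0.18. An unadjusted p under 0.05 held for 10 of the 71 on casein (1478 of all genes), 22 on the high fat diet (4533) and 26 averaged over diets (4658). Mgst2, a microsomal glutathione transferase, was -0.41 to -0.15 in the 6 wild type pools and 0.15 to 0.29 in the 6 null pools. Such a separation held for 3.07% of all genes in either direction. The averaged difference of Mgst2, 0.53 ± 0.06 (SE, adjusted p = 0.0051, limma), kept its call without each pool in turn (adjusted p = 0.0014 to 0.022). The metallothioneins Mt1 and Mt2, which bind zinc and copper, had averaged differences of 0.50 and 1.26 (adjusted p = 0.017 and 0.041). Mt1 differed by 0.60 on the high fat diet. Without probe sets that can bind several transcripts, both calls of Mt1 were lost, with differences of 0.10 on the high fat diet (adjusted p = 0.71) and 0.19 averaged over diets (adjusted p = 0.24). Blvra, the biliverdin reductase that acts after heme oxygenase, differed by -0.67 on the high fat diet (adjusted p = 0.028) and Abcc1, which exports glutathione conjugates, by -0.41 (adjusted p = 0.041). All 6 high fat diet calls were lost when, on that diet, wild type pool 3 (adjusted p = 0.065 to 0.14), null pool 2 (0.074 to 0.13) or null pool 3 (0.074 to 0.17) was left out. In those fits 32, 0 and 0 of all genes passed. Apart from Mgst2, all 8 averaged calls were lost without null casein pool 2 (adjusted p = 0.050 to 0.12), where 157 of all genes passed. With the marker medians as covariates all calls of this list were lost (adjusted p = 0.27 to 1). In that fit 0 of all genes passed on the high fat diet or averaged over diets, so the loss cannot be read for single genes. The sizes in that fit are given without ranking the genes by them, and what moved them was not tested. On the high fat diet Mgst2 was at 0.70, Mt1 at 0.56 and Blvra at -0.55 in that fit, Abcc1 at -0.20, and Nxn and Cbr3 at 0.07 and 0.03.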

How the data were processed

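RNA of 12 pools of abdominal fat was measured on Affymetrix arrays from 8 µg of total RNA. The submitters' processing notes name GCOS and RMA without a version. The deposited values are on a log2 scale, as RMA gives (the base is not stated), and each of the 45101 probe sets has a median of 0 over the 12 arrays (0 depart by more than 1e-06), so the authors' values carry no levels and no signal over background. No scan date or batch is given.

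Of the probe sets, 34958 name 1 gene and were averaged per gene, 932 name several and 9211 none; 34754 were matched to RefSeq (GRCm38.p6) by gene identifier. One fit of the 4 group means was made to the 18194 genes with limma 3.58.1 in R 4.3.3 (8 residual and 2.5 prior degrees of freedom). It gave 7 comparisons with two-sided p-values adjusted over all genes by Benjamini-Hochberg (threshold 0.05), and was tested on simulated data. The number of arrays limits the precision.

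The members and lists were chosen with earlier results of these data known. Named with pool values were members past the threshold, the member with the smallest p of each of 10 families, and Nqo1, Hmox1, Nfe2l2, Keap1, Nnt, Sod3, Gpx3 and Cat. Alternatives were the median of probe sets, no probe sets ending in _x_at or _s_at, quantile normalization, array weights, robust eBayes, the replicate block, only the groups compared, marker covariates, and leaving out pools. The 3 pools that stand apart (wild type casein pool 3, wild type high fat diet pool 2 and null high fat diet pool 1) were chosen by their muscle and liver markers.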

Additional observations from a re-analysis of the deposited data

How the results depend on the processing

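The members past the threshold on the high fat diet (null minus wild type, 1) numbered 2 with the median of probe sets, 18 with array weights, whose estimation did not reach its convergence tolerance, 0 with the replicate block and 0 with the 3 marker medians as covariates (5 residual degrees of freedom); leaving out 1 pool gave 0 to 4. Averaged over diets (2) they numbered 16 with array weights, 0 without the 3 pools and 0 with the covariates; leaving out 1 pool gave 0 to 10. In null pools the diet comparison (0) gave 6 with array weights. No difference turned its sign while past the threshold in any alternative run.

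Over all genes, the 1077 calls on the high fat diet became 636 with quantile normalization, 5120 with array weights, 440 without the 3 pools and 0 with the covariates, and 0 to 1617 without 1 pool. The 1368 averaged calls became 4009, 548 and 0 with array weights, without the 3 pools and with the covariates, and 157 to 2339 without 1 pool. The diet comparison in null pools (0) gave 942 with array weights. The single averaged diet call became 0 to 9 without 1 pool. The cause of these changes was not tested, beyond fewer pools or residual degrees of freedom.

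Same-numbered pools are not known to share animals, and their deviations correlated over 0.1 in 3 of 18 pairs (-0.61 to 0.59). With the replicate block (6 residual degrees of freedom) the calls over all genes were 542 on the high fat diet and 829 averaged over diets, and the members 0 and 2. Those 2 were Sod2 (adjusted p = 0.046) and Gpx8 (0.049), which passed here and not without the block, while the calls of Xdh on the high fat diet (0.057) and of Sod3 averaged over diets (0.068) were lost.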
